A study of Homo sapiens with 96 samples.

Results

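The regions described here are alternative 3′ splice sites (A3SS) whose acceptors lie 4 to 50 nt apart. They were taken from the A3SS rows of 8 rMATS tables by the difference in length between the long and the short form of the exon. That rule found 3906 of the 10117 A3SS events listed in any table. They stand for 3170 distinct pairs of acceptors in 2356 genes, since an acceptor pair can be listed with several donors, and 2342 of them were listed in all 8 tables. Of the other A3SS, 1250 had acceptors 3 nt apart, 71 had acceptors 1 or 2 nt apart, and 4890 had acceptors over 50 nt apart.

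The tables come from poly(A)-RNA seq of A549 cells, an established human lung adenocarcinoma line, in 30 libraries forming 10 groups of 3. Cells were given 1 µM of the PRMT5 inhibitor GSK591 or 1 µM of the Type I PRMT inhibitor MS023 during 2, 4, or 7 days, or both inhibitors at 1 µM each for 2 or 4 days. Control cells were given 0.01% DMSO for 4 or 7 days. The 2-day groups were set against the 4-day DMSO libraries, so in these comparisons the time in culture and the inhibitor cannot be told apart, and all 2-day and 4-day comparisons share these controls. The 7-day comparisons share the 7-day DMSO libraries. Neither the labels nor the tables say whether libraries of a group came from separate cultures, so p-values measure the spread between these libraries, which may be technical. Of 15 epithelial marker genes, 5 (CDH1, ELF3, KRT7, KRT8, and KRT18) had a splicing event with enough reads to be tested, against 0 of 14 haematopoietic and 0 of 8 endothelial markers. The members held 1060423 to 1666856 reads in a library, out of 3540120 to 5849271 on all A3SS. Libraries of a group differed by 1.549 to 2.352 times the sampling variance.

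At the 3′ end of an intron the U2AF heterodimer binds the polypyrimidine tract and the AG that follows it, and the second step of splicing joins the upstream exon to an AG downstream of the branch point. Where several AGs lie close together, the spliceosome can use either of them, and the mRNA gains or loses the short stretch between both. A stretch whose length is a multiple of 3 adds or removes whole codons when it lies in coding sequence, while other lengths shift the reading frame. PRMT5 deposits symmetric dimethylarginine and the Type I PRMTs deposit asymmetric dimethylarginine, and many of their substrates are RNA-binding proteins and core components of the spliceosome, among them the Sm proteins.

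To show what such a pair looks like, stretches around both acceptors are given for members on which the results turn. Each runs 5′ to 3′ on the transcribed strand of GRCh37 (hg19), from 25 bases of intron through the segment between the acceptors to 8 bases of the shared exon. The capitals mark the AG of the upstream acceptor and then that of the downstream acceptor. All of these segments were annotated as coding in GENCODE release 44.
MGAT4B, 15 nt, chr5:179225569-179225616, minus strand: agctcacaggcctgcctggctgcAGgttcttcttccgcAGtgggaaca
TACC2, 12 nt, chr10:123974881-123974925, plus strand: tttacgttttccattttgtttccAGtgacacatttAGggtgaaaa
RALGAPB, 12 nt, chr20:37163692-37163736, plus strand: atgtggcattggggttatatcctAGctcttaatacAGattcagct
CHD3, 12 nt, chr17:7797408-7797452, plus strand: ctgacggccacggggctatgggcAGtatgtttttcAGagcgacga
SLC25A39, 24 nt, chr17:42399889-42399945, minus strand: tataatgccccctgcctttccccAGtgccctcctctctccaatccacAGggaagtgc
ARL6IP4, 24 nt, chr12:123466093-123466149, plus strand: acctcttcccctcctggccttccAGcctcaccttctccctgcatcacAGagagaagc
QKI, 24 nt, chr6:163984427-163984483, plus strand: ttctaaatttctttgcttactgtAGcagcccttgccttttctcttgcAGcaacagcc
PANK4, 34 nt, chr1:2442180-2442246, minus strand: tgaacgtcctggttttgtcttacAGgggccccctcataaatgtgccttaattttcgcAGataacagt
KIAA0907, 28 nt, chr1:155886493-155886553, minus strand: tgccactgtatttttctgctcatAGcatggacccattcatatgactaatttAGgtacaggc
AURKB, 46 nt, chr17:8110199-8110277, minus strand: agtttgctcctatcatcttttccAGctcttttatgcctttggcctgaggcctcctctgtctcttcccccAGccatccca
The upstream acceptor ended in CAG in MGAT4B, CHD3, SLC25A39, ARL6IP4, PANK4, and AURKB, and in TAG in RALGAPB, QKI, and KIAA0907. TACC2 had CAG upstream and TAG downstream. In CHD3 only 35.0% of the 20 bases that end 3 bases before the upstream acceptor were pyrimidines, against 55.0% before the downstream acceptor, whereas TACC2 had 80.0% and 65.0%.

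Over all 3170 pairs the distance was most often 4 nt (229 pairs), followed by 5 nt (174 pairs), 21 nt (135 pairs), 6 nt (124 pairs), and 18 nt (115 pairs), with a median of 22 nt. Multiples of 3 made up 39.9% of pairs. They made up 44.0% of the 2195 pairs in coding sequence and 27.0% of the 738 pairs in untranslated or noncoding exons. The segment was coding in 69.2% of pairs, in a 5′ UTR in 10.5%, and in a 3′ UTR in 2.4%, and both acceptors were annotated in 96.3%. An AG stood at the upstream acceptor of 97.88% of members and at the downstream acceptor of 99.62%, against 5.99% and 8.96% at positions shifted by 7 nt, so the coordinates of the tables match this genome. CAG was found at 56.1% of upstream and 69.5% of downstream acceptors, and TAG at 25.9% and 18.1%. The median share of pyrimidines was 70.0% before upstream and 65.0% before downstream acceptors.

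**Figure D1:**
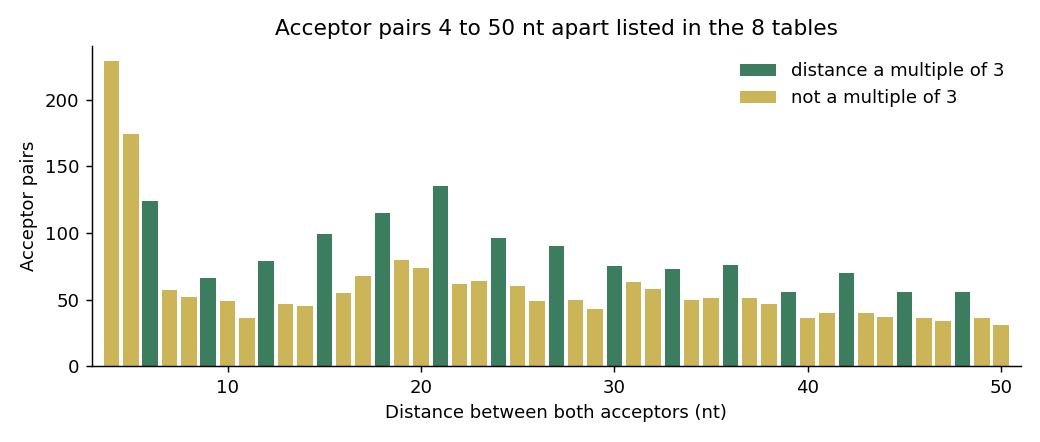
Number of acceptor pairs (vertical axis) at each distance between both acceptors in nt (horizontal axis), with multiples of 3 in green and other distances in yellow. Pairs 4 and 5 nt apart were the most frequent, and from 9 nt on most multiples of 3 stand above their neighbours, with 135 pairs at 21 nt.

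The use of each pair is given as Ψ, the share of transcripts that use the upstream acceptor and so keep the segment, from read counts divided by effective length. ΔΨ is Ψ with inhibitor minus Ψ with DMSO, and a positive ΔΨ is read here as more use of the upstream acceptor. Reads of a retained intron may enter the long form, so Ψ does not measure the choice of acceptor alone. Most pairs leaned heavily to 1 acceptor. Among the 2312 members tested with GSK591 at 2 days, in the 4-day DMSO libraries 30.3% had a mean Ψ under 0.1, 46.8% had over 0.9, and 6.79% lay between 0.3 and 0.7, with a median of 0.854. The 2278 members tested with GSK591 at 7 days gave, in the 7-day DMSO libraries, 31.7%, 46.5%, and 7.02%, with a median of 0.856.

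To ask how each inhibitor altered these choices, the counts of both forms were fitted event by event with a quasi-binomial model, whose dispersion was moderated with limma, and called at an adjusted p (Benjamini-Hochberg over all A3SS of the comparison) under 0.05. A member was tested where every library had at least 10 reads and both forms were seen. This held for 2957 of the 3906 members in at least 1 of the 8 comparisons with DMSO and for 1856 in all 8, while 949 were tested in none.

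GSK591 moved members in both directions. At 2 days, 72 of 2312 tested members (3.11%) were called, 37 higher and 35 lower, against 4.75% of all A3SS tested in that comparison, of which 2.91% were called higher. At 4 days the count was 158 of 2398 (6.59%), 86 higher and 72 lower, against 8.89% and 5.24% of all A3SS. At 7 days it was 121 of 2278 (5.31%), 60 higher and 61 lower, against 6.71% and 3.46%, and the balance there depended on single libraries, with 16 higher and 30 lower without GSK591 library c and 25 and 38 without DMSO library c. In each of these comparisons the members' share was below that of all A3SS, to which they contribute.

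MS023 called fewer members, and mostly as lower. At 2 days, 34 of 2441 (1.39%) were called, 9 higher and 25 lower, against 2.44% of all A3SS called and 0.666% called higher. At 4 days, 37 of 2448 (1.51%) were called, 9 higher and 28 lower, against 2.63% and 0.710%. At 7 days, 52 of 2336 (2.23%) were called, 11 higher and 41 lower, against 3.39% and 0.823%. The DMSO libraries of 7 and 4 days differed from each other in 42 of 2289 members (1.83%), 23 higher and 19 lower at 7 days, against 2.52% of all A3SS. The number of calls under MS023 is thus of the size that separated both control groups, while most calls under MS023 were lower and those between the controls went both ways.

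With both inhibitors, 141 of 2334 members (6.04%) were called at 2 days, 71 higher and 70 lower, against 9.00% of all A3SS called and 4.61% called higher. At 4 days, 233 of 2402 (9.70%) were called, 119 higher and 114 lower, against 12.3% and 6.58%. Set directly against GSK591 alone, co-treatment differed in 25 of 2075 members at 2 days (9 higher, 16 lower), against 2.62% of all A3SS, and in 39 of 2153 at 4 days (21 higher, 18 lower), against 3.51%.

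Most members moved little. Libraries within a group are called a, b, and c here by their order in the tables. The median absolute ΔΨ over all tested members was 0.009 to 0.013 in these comparisons with DMSO, while that of called members was 0.057 to 0.104. An absolute ΔΨ over 0.2 was reached by 29 of the 158 members called with GSK591 at 4 days, by 38 of the 233 called with both inhibitors at 4 days, and by 3 of the 52 called with MS023 at 7 days. The counts depend on the test. limma on the log2 odds of each library called 0 members with GSK591 or MS023 on any day, 12 with both inhibitors at 2 days (against 0.683% of all A3SS), and 34 at 4 days (against 2.33%), with an unadjusted p under 0.05 in 222 (2 days), 308 (4 days), and 294 (7 days) members for GSK591 and 166, 175, and 181 for MS023.

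**Figure D2:**
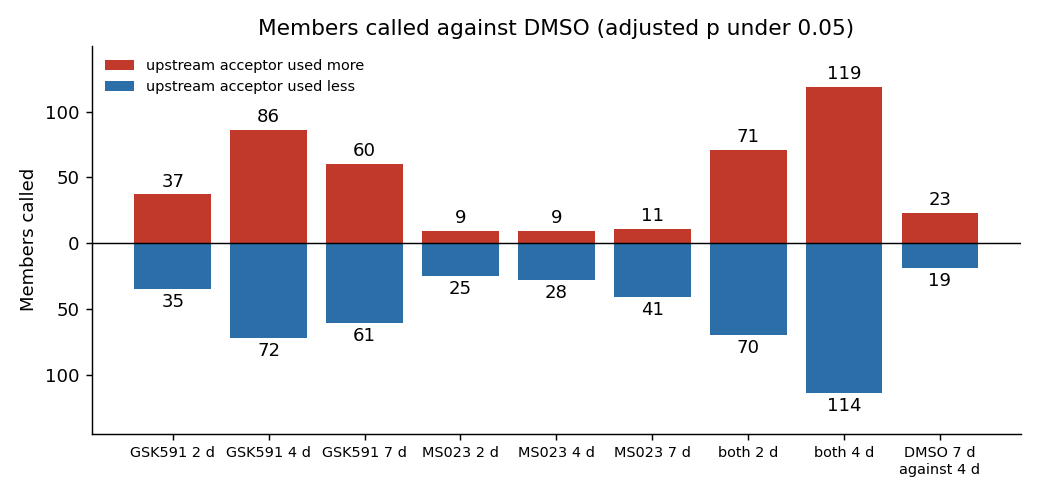
Members called (adjusted p under 0.05) in each comparison with DMSO, and between the 7-day and 4-day DMSO groups. Higher Ψ, read as more use of the upstream acceptor, is shown as red bars above 0 and lower Ψ as blue bars below 0. Bars of GSK591 and co-treatment are of similar height in both directions, from 35 to 119, while for MS023 the blue bars (25, 28, and 41) are longer than the red ones (9, 9, and 11).

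Both inhibitors were also compared with each other on the same day. At 2 days 145 of 2125 members differed (6.82%), 94 with higher and 51 with lower Ψ under GSK591, against 8.99% of all A3SS called and 6.21% called higher. At 4 days 230 of 2176 differed (10.6%), 154 higher and 76 lower, against 14.4% and 9.70%. At 7 days 183 of 2096 differed (8.73%), 97 higher and 86 lower, against 11.6% and 6.92%. limma on log2 odds called 0, 36, and 11 members in these comparisons, against 0, 2.59%, and 0.926% of all A3SS, with 280, 349, and 317 at an unadjusted p under 0.05.

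Of all tested members, groups did not overlap in 10.1% with MS023 at 2 days, the lowest share against DMSO. The highest was 20.2%, with both inhibitors at 4 days. Between the 7-day and 4-day DMSO groups the share was 12.3%, above that with MS023 at 2 days. The like share over all A3SS is not given here. Most members named below were chosen for absence of overlap, so it is no further support for them. Among members with at least 50 reads in every library and groups that did not overlap, the largest difference was in PLD3, which encodes an endolysosomal member of the phospholipase D family. Its pair lies 35 nt apart at chr19:40872291-40872325 in the 5′ UTR. With the intron of 798 nt, Ψ was 0.321, 0.297, and 0.344 in 4-day DMSO cells, rose to 0.557, 0.693, and 0.474 with GSK591 at 2 days, and to 0.894, 0.718, and 0.827 at 4 days. With both inhibitors at 4 days it was 0.819, 0.773, and 0.733. All libraries with GSK591 thus lay above all DMSO libraries. By Ψ, the upstream acceptor with this donor went from the minor to the major site (ΔΨ 0.492 at 4 days, adjusted p = 3.19e-10). At 7 days Ψ was 0.340, 0.396, and 0.385 with DMSO, 0.660, 0.746, and 0.643 with GSK591, and 0.243, 0.266, and 0.199 with MS023, so the inhibitors moved it to opposite sides of the control. ΔΨ was 0.309 with GSK591 (adjusted p = 3.23e-07) and -0.138 with MS023 (adjusted p = 0.00279, lost without 7-day DMSO library c or MS023 library c). Ψ with GSK591 exceeded that with MS023 by 0.328 at 2 days, by 0.509 at 4 days, and by 0.447 at 7 days (adjusted p = 7.03e-07, 1.78e-17, and 3.46e-19). With a second donor, for an intron of 453 nt, the upstream acceptor stayed the minor site. Mean Ψ there rose from 0.097 to 0.176 with GSK591 at 4 days (adjusted p = 6.33e-05) and from 0.112 to 0.153 at 7 days (adjusted p = 0.0233), and was 0.109 with MS023 at 7 days (adjusted p = 0.906).

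B4GALT3, a Golgi galactosyltransferase, has a pair 21 nt apart at chr1:161145865-161145885 in its 5′ UTR. Ψ was 0.376, 0.410, and 0.356 in 4-day DMSO cells and rose to 0.718, 0.625, and 0.639 with GSK591 at 2 days, 0.699, 0.597, and 0.678 with GSK591 at 4 days, and 0.667, 0.753, and 0.745 with both inhibitors at 4 days. No library of these inhibitor groups overlapped the controls (ΔΨ 0.280, 0.277, and 0.341, adjusted p = 5.32e-06, 2.11e-06, and 1.78e-08). At 7 days the DMSO values were 0.501, 0.533, and 0.457, those with GSK591 were 0.426, 0.520, and 0.547 (ΔΨ 0.001, adjusted p = 0.975), and those with MS023 were 0.379, 0.298, and 0.414. The fall with MS023 (ΔΨ -0.133, adjusted p = 0.0427) was no longer called without any 1 of the 6 libraries. The control groups differed by 0.116 (adjusted p = 0.117). Every GSK591 library at 7 days was also below every GSK591 library at 4 days, a contrast that was not tested. GSK591 exceeded MS023 by 0.344 at 2 days and 0.320 at 4 days (adjusted p = 6.61e-11 and 7.35e-11).

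RALGAPB, the regulatory subunit of complexes that switch off Ral GTPases, has acceptors 12 nt apart, so use of the upstream acceptor adds whole codons. Ψ was 0.598, 0.727, and 0.701 with DMSO at 4 days, 0.861, 0.926, and 0.921 with GSK591 at 2 days, and 0.877, 0.950, and 0.889 with GSK591 at 4 days. MS023 gave 0.577, 0.585, and 0.592 at 2 days. At 7 days DMSO gave 0.734, 0.800, and 0.738, GSK591 gave 0.916, 0.851, and 0.883, and MS023 gave 0.626, 0.633, and 0.569. GSK591 libraries were above and 7-day MS023 libraries below every control of their comparison, with ΔΨ of 0.227, 0.230, and 0.126 for GSK591 on the 3 days (adjusted p = 1.87e-05, 3.75e-06, and 0.00387) and -0.148 for MS023 at 7 days (adjusted p = 0.0288, lost without any 1 of the 6 libraries). The inhibitors differed by 0.318 at 2 days (adjusted p = 8.86e-10).

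TACC2, a centrosome-associated coiled-coil protein, has acceptors 12 nt apart, and here calls of opposite direction were made on all 3 days. Ψ was 0.858, 0.878, and 0.907 with DMSO at 4 days and 0.861, 0.876, and 0.897 at 7 days. GSK591 gave 0.948, 0.933, and 0.953 at 2 days, 0.943, 0.946, and 0.926 at 4 days, and 0.940, 0.960, and 0.975 at 7 days. MS023 gave 0.757, 0.820, and 0.781, then 0.753, 0.757, and 0.750, and then 0.720, 0.791, and 0.723. The groups did not overlap on any day, with ΔΨ of 0.064, 0.058, and 0.080 for GSK591 (adjusted p = 0.00415, 0.0059, and 0.00222) and -0.095, -0.128, and -0.133 for MS023 (adjusted p = 8.46e-05, 1.5e-06, and 5.33e-06). Cells with both inhibitors lay near DMSO, at 0.857, 0.883, and 0.914 at 2 days (ΔΨ 0.004, adjusted p = 0.939) and 0.881, 0.944, and 0.908 at 4 days (ΔΨ 0.030, adjusted p = 0.318). The call with GSK591 was lost without DMSO library a at 2 days, without DMSO library a or b at 4 days, and without GSK591 library c at 7 days, and that with MS023 without MS023 library a at 2 days. With a second donor of TACC2, for an intron of 3968 nt rather than 3682 nt, no difference from DMSO was called, with ΔΨ of -0.007 with GSK591 (adjusted p = 0.909) and -0.086 with MS023 (adjusted p = 0.363) at 4 days.

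**Figure D3:**
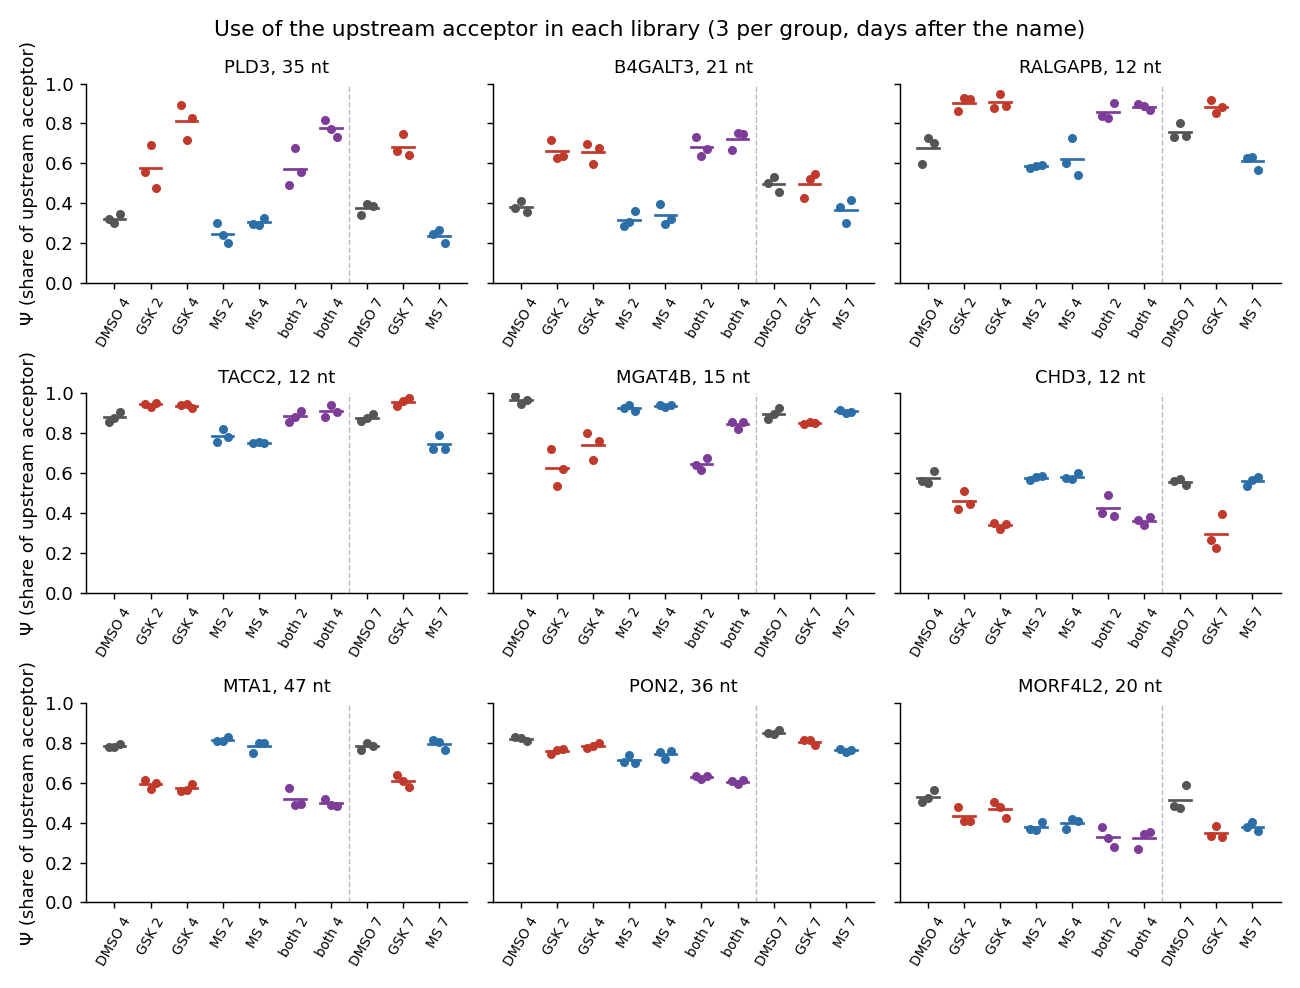
Ψ of 9 members (vertical axes, 0 to 1) in each library of the 10 groups (horizontal axes, inhibitor and day), with points for libraries, short lines for group means, and a dashed line before the 7-day groups. In PLD3 GSK591 (red) and co-treatment (purple) stand above DMSO (grey), in TACC2 MS023 (blue) stands below it, and in PON2 co-treatment stands lowest.

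Other members fell with GSK591. In MGAT4B, which branches N-glycans, the acceptors lie 15 nt apart. Ψ was 0.987, 0.949, and 0.968 with DMSO at 4 days and fell to 0.719, 0.537, and 0.620 with GSK591 and 0.641, 0.617, and 0.678 with both inhibitors at 2 days. No library of either group reached a control, and the downstream acceptor was nearly unused in the controls. ΔΨ was -0.343 (adjusted p = 9.34e-10) and -0.323 (adjusted p = 2.18e-12), and -0.226 with GSK591 at 4 days (adjusted p = 2.87e-08). At 7 days Ψ was 0.870, 0.896, and 0.927 with DMSO and 0.845, 0.855, and 0.854 with GSK591 (ΔΨ -0.046, adjusted p = 0.441), and both controls differed by -0.070 (adjusted p = 0.157). These values are for an intron of 473 nt, and with a second donor, for an intron of 336 nt, ΔΨ with GSK591 was -0.008 at 2 days (adjusted p = 0.395).

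CHD3 and MTA1 encode subunits of the NuRD chromatin remodelling and deacetylase complex. For the 12 nt pair of CHD3, Ψ was 0.559, 0.552, and 0.611 with DMSO at 4 days and 0.351, 0.321, and 0.342 with GSK591 at 4 days. At 7 days it was 0.562, 0.570, and 0.541 with DMSO and 0.261, 0.226, and 0.395 with GSK591. No GSK591 library reached a control, with ΔΨ of -0.236 and -0.263 (adjusted p = 1.24e-09 and 2.91e-10). With MS023 the differences were 0.003, 0.008, and 0.004 on the 3 days and were not called (adjusted p = 0.977, 0.881, and 0.978). For the 47 nt pair of MTA1, at chr14:105930753-105930799 in coding sequence, Ψ was 0.782, 0.783, and 0.797 with DMSO at 4 days. GSK591 gave 0.615, 0.571, and 0.602 at 2 days and 0.559, 0.566, and 0.593 at 4 days, and both inhibitors gave 0.521, 0.491, and 0.485 at 4 days. Here too the groups stood apart (ΔΨ -0.191, -0.215, and -0.288, adjusted p = 2.89e-09, 5.02e-12, and 5.2e-14). At 7 days ΔΨ with GSK591 was -0.175 (adjusted p = 5.68e-06).

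PON2, a paraoxonase that acts as an intracellular lactonase and antioxidant, was the only member called in all 8 comparisons, each time as lower. Its acceptors lie 36 nt apart at chr7:95041056-95041091, in coding sequence in some transcripts and 3′ UTR in others, and it had 1731 to 6242 reads per library. Ψ was 0.829, 0.828, and 0.808 with DMSO at 4 days, 0.776, 0.783, and 0.798 with GSK591, and 0.754, 0.721, and 0.758 with MS023. Both inhibitors gave 0.611, 0.593, and 0.615. These groups did not overlap, and co-treatment lay far below either inhibitor (ΔΨ -0.215 against DMSO, adjusted p = 4.9e-21, and -0.179 against GSK591, adjusted p = 2.78e-37). At 7 days Ψ was 0.850, 0.844, and 0.865 with DMSO, 0.817, 0.816, and 0.791 with GSK591, and 0.773, 0.756, and 0.767 with MS023 (adjusted p = 1.17e-05 and 1.07e-14). The controls differed by 0.031 (adjusted p = 0.00215), close in size to the ΔΨ of -0.036 with GSK591 at 4 days, a call lost without 4-day DMSO library a or b or GSK591 library a or b. A second donor of PON2, for an intron of 4462 nt rather than 532 nt, was not called where tested. Its ΔΨ with GSK591 at 4 days was -0.0008 (adjusted p = 0.6).

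MORF4L2, a subunit of histone acetyltransferase complexes, has 3 acceptors in a row in its 5′ UTR, 31 and 20 nt apart, at chrX:102933529-102933579. For the 20 nt pair Ψ was 0.506, 0.524, and 0.562 with DMSO at 4 days, 0.369, 0.366, and 0.402 with MS023 at 2 days, and 0.270, 0.346, and 0.354 with both inhibitors at 4 days. At 7 days it was 0.483, 0.472, and 0.592 with DMSO, 0.336, 0.383, and 0.326 with GSK591, and 0.377, 0.403, and 0.359 with MS023. All these inhibitor libraries were below their controls, and this pair was called lower in 7 of 8 comparisons (ΔΨ -0.151 with MS023 at 2 days, adjusted p = 3.27e-06). These values are for an intron of 6060 nt. With another donor, for an intron of 6519 nt, the 31 nt pair fell with MS023 at 7 days from 0.873, 0.866, and 0.878 to 0.711, 0.727, and 0.720 (ΔΨ -0.153, adjusted p = 5.39e-13). With the donor used for the 20 nt pair, the 31 nt pair has an intron of 6029 nt. There ΔΨ with MS023 at 7 days was -0.094 (adjusted p = 8.46e-06). Both pairs share the middle acceptor and so are not independent. With the donor of the 6519 nt intron, the 20 nt pair has an intron of 6550 nt rather than 6060 nt. There the 20 nt pair was called lower in 2 of 8 comparisons, and ΔΨ with MS023 at 2 days was -0.028 (adjusted p = 0.365).

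Further members with large differences were called in fewer groups. PANK4, of the pantothenate kinase family, fell with both inhibitors at 2 days from 0.703, 0.784, and 0.758 to 0.494, 0.363, and 0.283 (ΔΨ -0.368, adjusted p = 9.4e-06) over a 34 nt segment that shifts the frame. It also fell with GSK591 at 7 days (ΔΨ -0.302, adjusted p = 0.000139). SLC25A39, a mitochondrial carrier involved in glutathione import, fell with GSK591 at 7 days from 0.542, 0.567, and 0.538 to 0.221, 0.367, and 0.247 (ΔΨ -0.271, adjusted p = 0.000212). With both inhibitors at 4 days it was called higher, at 0.669, 0.695, and 0.754 against 0.504, 0.507, and 0.668 (ΔΨ 0.146, adjusted p = 0.0298, lost without 5 of the 6 libraries, each in turn). These values are for an intron of 731 nt. With a second donor, for an intron of 255 nt, mean Ψ of SLC25A39 fell from 0.265 to 0.126 with GSK591 at 7 days (adjusted p = 1.43e-12) and from 0.231 to 0.177 at 4 days (adjusted p = 0.000946), and rose to 0.291 with both inhibitors at 4 days (adjusted p = 0.00036). MTRF1L, a mitochondrial release factor, went from 0.727, 0.791, and 0.706 to 0.514, 0.437, and 0.482 with GSK591 at 7 days (ΔΨ -0.263, adjusted p = 1.88e-07) and was called on no other day. TMEM184A, a transmembrane protein, fell with both inhibitors at 4 days from 0.868, 0.616, and 0.777 to 0.382, 0.458, and 0.507 (ΔΨ -0.305, adjusted p = 0.000218, lost without co-treatment library a). The libraries of these comparisons did not overlap, which was a condition for naming these members.

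KIAA0907, a KH-domain RNA-binding protein, rose with GSK591 at 2 days from 0.492, 0.424, and 0.452 to 0.749, 0.693, and 0.761 (ΔΨ 0.278, adjusted p = 1.37e-05). MS023 at 4 days gave 0.516, 0.562, and 0.738 (ΔΨ 0.149, adjusted p = 0.033), and the 7-day controls stood at 0.630, 0.625, and 0.492, a difference of 0.126 from the 4-day controls (adjusted p = 0.124). IRF3, a transcription factor of the interferon response, was called higher with MS023 at 4 days, at 0.413, 0.416, and 0.350 against 0.285, 0.228, and 0.034 (ΔΨ 0.210, adjusted p = 0.0388). Control library c was far below the others there, and the 7-day controls, at 0.293, 0.351, and 0.464, covered the MS023 values. For another donor of IRF3, with an intron of 1103 nt, ΔΨ with MS023 at 4 days was 0.031 (adjusted p = 0.482). Both MS023 calls were lost on leaving out any 1 of 5 of the 6 libraries. CENPK, of the inner kinetochore, fell with MS023 at 2 days from 0.917, 0.937, and 0.850 to 0.756, 0.796, and 0.822 (ΔΨ -0.110, adjusted p = 0.018), a call lost without 4 of the 6 libraries, each in turn. A second CENPK event, with an intron of 6550 nt, had ΔΨ of -0.005 there (adjusted p = 0.996). GGT1, a gamma-glutamyltransferase, rose with both inhibitors at 4 days from 0.075, 0.069, and 0.062 to 0.231, 0.30, and 0.264 (ΔΨ 0.196, adjusted p = 3.25e-11), and was called higher in 6 of 8 comparisons. Its family has near-identical copies, so its counts are uncertain.

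Some members lie at the end of an intron that is also listed as a retained intron (RI). In the comparison of GSK591 with DMSO at 4 days, 203 tested members had such an RI event, of which 85 (41.9%) were called, close to the 38.2% of all RI tested. Of 18 called members with an RI event, that event was called in 11. For MS023 at 7 days 17 of 202 such RI events were called (8.42%), and 0 of the 5 called members with an RI event had it called, against 11.4% of all RI. In NUP62, a protein of the nuclear pore channel, a 33 nt pair in the 5′ UTR at chr19:50431073-50431105 is listed with several donors. With the shorter intron of 1477 nt, Ψ was 0.613, 0.579, and 0.523 with DMSO and 0.214, 0.217, and 0.233 with GSK591 at 7 days, and with the longer intron of 1568 nt it was 0.491, 0.673, and 0.616 against 0.186, 0.218, and 0.227. Both fell without overlap (ΔΨ -0.350 and -0.383, adjusted p = 4.79e-09 and 9.27e-07), while retention of the intron rose by 0.601 and 0.210. MS023 at 4 days gave 0.480, 0.432, and 0.392 against 0.587, 0.616, and 0.506 for the shorter intron (ΔΨ -0.135, adjusted p = 0.0319, lost without 5 of the 6 libraries, each in turn), with retention higher by 0.128. A further NUP62 event, with an intron of 1501 nt, had ΔΨ of -0.099 with GSK591 at 7 days (adjusted p = 0.515).

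For DDX11, a DNA helicase of sister chromatid cohesion, Ψ of the 46 nt pair rose with GSK591 at 2 days from 0.081, 0.137, and 0.110 to 0.227, 0.534, and 0.332 (ΔΨ 0.255, adjusted p = 6.09e-05). That of the 5 nt pair fell at 4 days from 0.826, 0.919, and 0.762 to 0.592, 0.496, and 0.681 (ΔΨ -0.246, adjusted p = 6.67e-05). The downstream acceptor of the 46 nt pair is the upstream acceptor of the 5 nt pair, so they are not independent. GSK591 minus MS023 was -0.325 for the 5 nt pair (adjusted p = 1.26e-13). Retention of the same intron rose by 0.352 at 2 days and 0.381 at 4 days, and near-identical copies of DDX11 make its counts uncertain. In ARL6IP4, a nuclear protein rich in serine and arginine, the 24 nt pair fell with MS023 at 2 days from 0.265, 0.331, and 0.336 to 0.203, 0.179, and 0.214 (ΔΨ -0.112, adjusted p = 1.49e-07), with retention higher by 0.107. The pair of ARL6IP4 is listed with another donor too. There, with an intron of 304 nt rather than 271 nt, ΔΨ with MS023 at 2 days was -0.045 (adjusted p = 0.0605). At 7 days this donor was called lower with MS023 (ΔΨ -0.065, adjusted p = 8.98e-06) and higher with GSK591 (ΔΨ 0.053, adjusted p = 0.00218). With the intron of 271 nt ΔΨ at 7 days was -0.061 with MS023 (adjusted p = 0.0011) and 0.061 with GSK591 (adjusted p = 0.0018). PHF1, a partner of Polycomb repressive complex, fell over an 11 nt pair with GSK591 at 4 days from 0.590, 0.577, and 0.585 to 0.499, 0.264, and 0.252 (ΔΨ -0.245, adjusted p = 0.00242, lost without GSK591 library c), with a difference in retention of 0.142 (adjusted p = 0.0856). With both inhibitors at 2 days it fell to 0.363, 0.328, and 0.251 (ΔΨ -0.270, adjusted p = 0.00138), with retention higher by 0.186. Retention was also called higher where the pair was not called. In NUP62 retention of the shorter intron rose by 0.276 with GSK591 and by 0.388 with both inhibitors at 2 days. In ARL6IP4 it rose by 0.187 with GSK591 at 4 days. Whether retention had a part in these values of Ψ was not tested.

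Over the 8 comparisons with DMSO, 436 of 2957 tested members (14.7%), in 380 genes, were called at least once, standing for 417 acceptor pairs. The like count over all A3SS was not made. In each comparison a smaller share of members than of all A3SS was called. Of the 436 members, 195 were called only as higher, 220 only as lower, and 21 as higher in 1 comparison and lower in another. Calls were made in a single comparison for 233 members, in 2 for 95, in 3 for 49, in 4 for 29, in 5 for 21, in 6 for 7, and in 7 and 8 for 1 each. Direction could be followed between comparisons that have no library in common. Of members tested with GSK591 at 4 and at 7 days, 43 were called in both, which is 29.5% of those called at 4 days and 36.1% of those called at 7 days, and all 43 went the same way. Of all 2078 members tested in both, 7.03% and 5.73% were called, and ΔΨ had the same sign in 58.7%. For MS023 at 4 and 7 days, 15 were called in both (40.5% and 29.4%), and all 15 went the same way, where 1.73% and 2.38% of all 2140 were called and 54.2% had the same sign.

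GSK591 at 4 days and MS023 at 7 days also have no library in common. They shared 12 called members, 8.0% of the 150 called with GSK591 and 23.5% of the 51 called with MS023, of which 2 went the same way. Of all 2098 members tested in both, 7.15% were called with GSK591 and 2.43% with MS023, and ΔΨ had the same sign in 45.2%, called or not. Those 2 were PON2 and NGFRAP1. The other 10 went opposite ways. PLD3, B4GALT3, RALGAPB, TACC2, B4GALNT1, GLYR1, ILK, and VEZT rose with GSK591 and fell with MS023, and GUK1 and PSAP the reverse. B4GALNT1, GLYR1, GUK1, ILK, NGFRAP1, PSAP, and VEZT fall outside the rule for named genes and were chosen after their values were seen. B4GALNT1, which makes gangliosides, had ΔΨ of 0.173 and -0.126, and ILK, the integrin-linked kinase, had 0.10 and -0.116. MS023 at 4 days and GSK591 at 7 days likewise shared 12 members (32.4% and 10.1%), of which 7 went the same way. Of all 2084 members tested in both, 1.78% and 5.71% were called, and ΔΨ had the same sign in 48.8%. Co-treatment at 4 days shared 52 with GSK591 at 7 days (23.5% and 43.7%), 48 in the same direction, and 20 with MS023 at 7 days (8.97% and 39.2%), 12 in the same direction. For co-treatment and GSK591, 10.7% and 5.75% of all 2068 members tested in both were called, and 57.5% had the same sign. For co-treatment and MS023 these shares were 10.6% and 2.43% of 2098, with the same sign in 49.3%.

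Called members differed in kind by the use of the pair in DMSO. With GSK591 at 4 days, 18.2% of 170 members with a DMSO Ψ between 0.3 and 0.7 were called, against 2.85% of 1122 members over 0.9 and 6.80% of 721 under 0.1. By distance, the share was 2.51% at 4 to 6 nt, 6.30% at 7 to 12 nt, 10.1% at 13 to 20 nt, 4.63% at 21 to 30 nt, 8.48% at 31 to 40 nt, and 7.36% at 41 to 50 nt. The 4 to 6 nt class also had the lowest share with GSK591 at 7 days (2.25%), both inhibitors at 4 days (2.23%), and MS023 at 7 days (0.838%). Pairs 4 nt apart had a median DMSO Ψ of 0.982 among those tested with GSK591 at 4 days. That lies in the class over 0.9, and distance and use in DMSO were not separated. Whether the segment kept the frame made little difference with GSK591 at 4 days, with 6.20% of multiples of 3 called and 6.86% of others. With MS023 at 7 days these shares were 2.94% and 1.74%. These are descriptions without a test, and members of a class can share a gene or an exon.

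Outside the range of distances, 3 nt pairs were called less often and pairs over 50 nt apart more often. With GSK591 at 4 days the shares were 1.70% of 706, 6.59% of 2398, and 12.4% of 3137 for 3 nt, 4 to 50 nt, and over 50 nt, and with MS023 at 7 days they were 0.598% of 669, 2.23% of 2336, and 4.91% of 3036. The median DMSO Ψ of these classes at 4 days was 0.677, 0.854, and 0.955. Just inside and outside the limits, with GSK591 at 4 days, 12 of 706 events were called at 3 nt, 3 of 156 at 4 nt, 1 of 30 at 50 nt, and 6 of 67 at 51 nt, with median absolute ΔΨ of 0.024, 0.009, 0.009, and 0.020.

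Lists of genes by function were read against these calls. Over all members tested, 14.7% were called in at least 1 of the 8 comparisons. Of 74 members tested in genes of splicing factors, 7 (9.46%) were called in any comparison, in ACIN1, EWSR1, HNRNPR, HNRNPUL1, QKI, and RBM42. QKI, a STAR-family RNA-binding protein that regulates splicing, was called lower in 5 comparisons. Its 24 nt pair went from 0.854, 0.891, and 0.870 with DMSO at 4 days to 0.788, 0.807, and 0.804 with GSK591 and 0.775, 0.749, and 0.688 with both inhibitors, with no overlap (ΔΨ -0.134 for the latter, adjusted p = 2.76e-06). RBM42, an RNA-binding protein, fell over its 24 nt pair from 0.896 ± 0.026 to 0.783 ± 0.036 (SD of 3 libraries) with GSK591 at 4 days (adjusted p = 0.0153, lost without DMSO library a or c or GSK591 library c). With a second donor of RBM42, for an intron of 75 nt rather than 1671 nt, ΔΨ there was 0.0005 (adjusted p = 0.954). ACIN1, a subunit of a complex that binds the exon junction complex, rose over its 36 nt pair from 0.810 ± 0.015 to 0.897 ± 0.011 with GSK591 at 7 days (adjusted p = 7.68e-06), and was called lower with MS023 at 4 days (ΔΨ -0.055, adjusted p = 0.0353, lost without any 1 of the 6 libraries).

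Of 59 members in genes of mRNA export, decay, and 3′ end processing, 5 (8.47%) were called. Besides NUP62, NUP107, of the outer ring of the pore, fell from 0.987 ± 0.010 to 0.928 ± 0.034 with GSK591 at 4 days (adjusted p = 0.000846). A second donor of NUP107, for an intron of 6072 nt, was not called against DMSO where tested. Its ΔΨ with both inhibitors at 4 days was -0.042 (adjusted p = 0.114). Of 10 members in genes of PRMTs and their partners, the quasi-binomial model called 0 in any of the 8 comparisons, and limma on log2 odds also called 0. An unadjusted p under 0.05 was found for 6 of them at least once, in 9 of 64 tests. That share lay between those of all members with MS023 at 2 days (238 of 2441) and both inhibitors at 4 days (513 of 2402).

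In genes of chromatin regulators 18 of 69 members (26.1%) were called in any comparison, against 14.7% of all members. At 4 days with both inhibitors 14 of 58 were called, 7 higher and 7 lower, against 9.70% of all members, with a median ΔΨ of -0.002. Of members in DNA repair genes 5 of 39 (12.8%) were called. RAD9A, of the checkpoint clamp, fell from 0.882 ± 0.033 to 0.753 ± 0.049 with GSK591 at 4 days (adjusted p = 0.0251, lost without 4 of the 6 libraries, each in turn). ERCC3, the helicase of TFIIH, was called lower with GSK591 at 7 days (ΔΨ -0.041, adjusted p = 0.0416), where retention of the same intron was higher by 0.281. With both inhibitors at 4 days its retention was higher by 0.306, and the pair was not called. RECQL4, a DNA helicase, was called lower with MS023 at 2 days (ΔΨ -0.056, adjusted p = 0.0221). The calls of ERCC3 and RECQL4 were both lost without 5 of the 6 libraries, each in turn.

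In genes of the cell cycle, p53, and apoptosis 8 of 59 members (13.6%) were called. AURKB, the Aurora kinase of the chromosomal passenger complex, rose with GSK591 on every day over its 46 nt pair. Ψ was 0.079, 0.070, and 0.059 with DMSO at 4 days, 0.130, 0.135, and 0.12 with GSK591 at 2 days, and 0.316, 0.178, and 0.247 at 4 days, with no overlap (ΔΨ 0.178 at 4 days, adjusted p = 2.2e-10). At 7 days it went from 0.059, 0.060, and 0.053 to 0.133, 0.141, and 0.104 (adjusted p = 0.0018, lost without GSK591 library b). These values of AURKB are for an intron of 241 nt. With a second donor, for an intron of 383 nt, no difference from DMSO was called, and ΔΨ with GSK591 at 4 days was -0.025 (adjusted p = 0.773). Since 46 is no multiple of 3, the minor form it raises shifts the frame. KIF18B, a mitotic kinesin, rose with both inhibitors at 2 days from 0.799 ± 0.042 to 0.915 ± 0.013 over a 27 nt pair whose downstream acceptor is not annotated (adjusted p = 1.42e-05).

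Of 86 members in translation genes 15 (17.4%) were called. EIF5A, the hypusinated elongation factor, fell with GSK591 at 4 days from 0.589, 0.644, and 0.585 to 0.452, 0.297, and 0.365 over an 18 nt pair in the 5′ UTR with an intron of 1463 nt (ΔΨ -0.235, adjusted p = 0.00334, lost without DMSO library b). Other donors of this EIF5A pair differed from it. With an intron of 1021 nt, ΔΨ with GSK591 at 4 days was 0.095 (adjusted p = 0.464), and mean Ψ rose from 0.467 to 0.785 with both inhibitors at 4 days (adjusted p = 0.00123). EIF4G2, an initiation factor of cap-independent translation, was called higher with GSK591 at 4 days (ΔΨ 0.059, adjusted p = 0.0181, lost without DMSO library b or GSK591 library a or b), but the 2 control groups alone differed by 0.115 (adjusted p = 1.19e-10). CARS, a cysteinyl-tRNA synthetase, was called lower with GSK591 at 4 days (ΔΨ -0.051, adjusted p = 0.0371, lost without any 1 of the 6 libraries).

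Of 86 members in genes of membrane traffic 10 (11.6%) were called, and 7 of 71 with both inhibitors at 4 days, 1 higher and 6 lower, against 9.70% of all members. EPN2, an endocytic adaptor of the epsin family, fell with GSK591 at 7 days from 0.786, 0.795, and 0.796 to 0.607, 0.646, and 0.593 (ΔΨ -0.176, adjusted p = 0.000137). PICALM, a clathrin assembly protein, fell over a 15 nt pair with both inhibitors at 4 days from 0.589, 0.605, and 0.587 to 0.456, 0.514, and 0.484 (ΔΨ -0.109, adjusted p = 0.000939). Neither set of libraries overlapped its controls, and absence of overlap was a condition for naming both members. With a second donor of PICALM, for an intron of 14822 nt, ΔΨ with both inhibitors at 4 days was -0.009 (adjusted p = 0.869). AP1G2, a subunit of a clathrin adaptor, was called lower with both inhibitors at 2 days (ΔΨ -0.045, adjusted p = 0.0301, lost without 4 of the 6 libraries, each in turn), with retention of the same intron higher by 0.080. With both inhibitors at 4 days retention was higher by 0.119, and the AP1G2 pair was not called.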

How the data were processed

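Poly(A)-RNA seq libraries of A549 cells were grouped by the sample labels. The authors trimmed reads with Trim Galore 0.6.5, aligned them to hg19 with STAR 2.4.2a, and ran rMATS for each inhibitor group against DMSO (the release differs between their sources). Each deposited table lists raw read counts of the long and short form of an event, as whole numbers for every library and without normalization, beside their effective lengths. These counts take in reads on exon bases as well as junctions, so reads of a retained intron may enter the long form. The tables' own p-values, FDR, and differences in Ψ were not used, and of the columns of per-sample values 0 were left out. The 7-day control was inferred from the labels. The tables join the 3 libraries of a group in a single field without replicate numbers.

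Ψ was computed from the counts over effective lengths. A quasi-binomial model was fitted to every A3SS event with at least 10 reads in every library, its dispersion was moderated with squeezeVar (limma 3.58.1, R 4.3.3) and not let below 1, and p-values came from an F test with Benjamini-Hochberg adjustment over all A3SS of the comparison. Events with 0 reads of either form over the compared libraries were left out, and events without measured dispersion were kept out of its prior, a choice made after the first fits. DMSO counts were the same in all tables that share a control, which allowed direct comparisons of inhibitors. The fit was tested on simulated counts with a common spread for all events, which does not show how it behaves where the spread differs between events. Sequences and annotation came from GRCh37 and GENCODE release 44 through pysam 0.24.0 and pandas 2.3.3. Most named members had at least 50 reads in every library and no overlap between groups. They had the largest absolute ΔΨ called in each comparison with DMSO (up to 4), between both inhibitors on each day (up to 3), or in each gene list (up to 3). Those called in most comparisons (up to 6) were named without these conditions. The members and lists were chosen with earlier results of these data known. Other samples of the series, 66 in number, were not analysed here. Alternatives were a minimum of 20 reads or of 1 read, limma on log2 odds with 0.5 added to each count, adjustment over all 5 event types, 1 event per acceptor pair, Ψ without effective lengths, and leaving out each library.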

Additional observations from a re-analysis of the deposited data

Results flagged for a closer look

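A difference between the effects of GSK591 and MS023 on the same day, tested directly, singled out 9 results in 6 genes. In PLD3 (35 nt pair) Ψ with GSK591 exceeded that with MS023 by 0.328 at 2 days, 0.509 at 4 days, and 0.447 at 7 days. In B4GALT3 (21 nt) it did so by 0.344 at 2 days and 0.32 at 4 days, and in RALGAPB (12 nt) by 0.318 at 2 days. GSK591 minus MS023 was -0.325 in DDX11 (5 nt) at 4 days, where near-identical copies make the counts uncertain, and -0.321 in SLC25A39 (24 nt) and -0.3 in MTRF1L (25 nt) at 7 days. Adjusted p-values of the quasi-binomial model for these differences were between 7.03e-07 (PLD3, 2 days) and 3.46e-19 (PLD3, 7 days). The members were picked as called and largest, so these p-values are no further support for them.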

How the results depend on the processing

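No paired analysis was possible because the columns of the tables carry no replicate numbers, so no fit with a replicate block could be made. limma on the log2 odds of each library was the alternative that changed most. It called 0 members with GSK591 at 2, 4, and 7 days, with MS023 at 2, 4, and 7 days, between both inhibitors at 2 days, between co-treatment and GSK591 at 2 and 4 days, and between the DMSO groups, 12 and 34 with both inhibitors at 2 and 4 days, and 36 and 11 between both inhibitors at 4 and 7 days. Of 292 called differences, which are those of all members with values given and of other donors of their pairs in any of the 14 comparisons, it kept 13 calls and lost 279. Adjustment over all 5 event types gave 40 calls between co-treatment and GSK591 at 2 days, against 25. All other total counts with 20 reads, 1 read, 5 event types, or 1 event per pair stayed within 1.5 times. By direction, 5 event types gave 20 higher calls with MS023 at 7 days (against 11), 16 higher between co-treatment and GSK591 at 2 days (against 9), and 30 lower between the DMSO groups (against 19). Of the 292 differences, all kept their calls under 5 event types and Ψ without effective lengths, as did all 291 tested with 20 reads and all 236 that could be followed with 1 event per pair. With 1 read 289 did, and calls were lost for DDX11 (5 nt) and MORF4L2 (20 nt) with GSK591 at 2 days and for IRF3 between both inhibitors at 7 days. An unadjusted p under 0.05 by limma was found for 149 and 176 members between co-treatment and GSK591 at 2 and 4 days and for 179 between the DMSO groups. The cause was not tested.

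Leaving out each library in turn gave 40 to 58 calls for GSK591 at 2 days (40 without 4-day DMSO library b, 42 without c, 44 without a, 45 without GSK591 library b), 9 to 25 for MS023 at 2 days (9 without MS023 library a or b, 21 without DMSO library a or b, 22 without c), and 74 to 108 for both at 2 days (74 without co-treatment library b, 87 without DMSO library a). At 4 days it gave 83 to 125 for GSK591 (83 without GSK591 library c, 86 without DMSO library b, 97 without DMSO library a, 99 without GSK591 library a), 11 to 35 for MS023 (11 without DMSO library b or MS023 library c, 12 without MS023 library b, 13 without a), and 153 to 182 for both (153 without co-treatment library c). At 7 days it gave 46 to 84 for GSK591 (46 without GSK591 library c, 63 without DMSO library c, 80 without b) and 15 to 33 for MS023 (15 without DMSO library c, 16 without MS023 library b or c, 21 without a, 23 without DMSO library a, 33 without b). Between both inhibitors the ranges were 83 to 123 at 2 days (83, 91, and 96 without MS023 library b, a, and c, 90 without GSK591 library c), 145 to 206 at 4 days (145 without MS023 library b), and 86 to 128 at 7 days (86 and 120 without GSK591 library c and a, 101 and 111 without MS023 library a and c). Between co-treatment and GSK591 they were 9 to 25 at 2 days (9 and 13 without co-treatment library b and c, 12 without GSK591 library c) and 20 to 28 at 4 days (20 without GSK591 library c or co-treatment library a, 23 without co-treatment library c, 25 without GSK591 library a), and between the DMSO groups 11 to 41 (11, 16, and 17 without 7-day library a, b, and c, 20 and 26 without 4-day library b and c). Of 1752 such refits of the 292 differences 1332 kept their call and 420 lost it, and 0 changed direction. With 3 libraries a group and 10 reads as the minimum, small shifts of rarely read pairs were not detectable.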
